A study of Mus musculus with 6 samples.

Results

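The 41 genes described here encode the classical cadherins, the non-clustered protocadherins and their giant relatives of the Celsr, Fat and Dachsous families. They were chosen by gene symbol, and all 41 were found among the 19938 genes that the arrays measured. They comprise 5 type I and 12 type II classical cadherins, 3 atypical cadherins, 2 tip-link cadherins, 4 delta-1 and 5 delta-2 protocadherins, 2 other non-clustered protocadherins, 3 Celsr genes and 5 Fat and Dachsous genes.

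Cadherins are surface proteins whose extracellular repeats bind calcium and, in most members, the same protein on the neighbouring cell. The tails of classical cadherins hold β-catenin and, through α-catenin, the actin cytoskeleton, and in the embryonic forebrain this complex ties radial glia together at the ventricular surface. Delta protocadherins do not bind β-catenin and are known for patchy expression in subsets of neurons, where they act in axon growth and cell sorting, whereas Celsr, Fat and Dachsous proteins are known for planar polarity and tissue growth control.

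The cells were derived from mouse embryonic stem cells (mESCs) of the 129SVEV background, in which an IRES-GFP sequence and a retained Neo cassette follow the stop codon of Ctip2 (gene symbol Bcl11b), a transcription factor of deep-layer cortical neurons. GFP therefore reports Ctip2 transcription in a single knock-in line, and every sample of both fractions carried the knock-in. Floating aggregates were differentiated with SB-431542, an inhibitor of TGF-β receptors, and WNT-C59, an inhibitor of WNT secretion, and were separated by fluorescence-activated cell sorting into CTIP2:GFP+ and CTIP2:GFP- cells on day 11, day 12 and day 13. The study compared the fractions to find surface proteins of the CTIP2:GFP+ cells, and each fraction had 1 array (GeneChip Mouse Gene 1.0 ST) per day, so that 3 GFP+ arrays were set against 3 GFP- arrays.

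Levels are given as the deposited log2 signals, in which 1 unit is a 2-fold step, and a difference is GFP+ minus GFP-. Signals of different probe sets are not on 1 scale, so levels of members were not compared with each other. The comparison with the floor below and the means over marker lists do cross probe sets. A call of above or below the floor is therefore approximate. To show which members lay near the floor of the arrays, the 95th percentile of 1027 olfactory receptor genes, most of which are silent outside the nose, was taken on each array, and it was 5.0 to 5.13 on the GFP+ arrays and 4.89 to 5.38 on the GFP- arrays. The GFP- array of day 13 stood apart. The SD over its probe sets was 1.11, against 1.29 to 1.48 on the other 5 arrays, and it correlated with them at 0.863 to 0.927 across probe sets, while the other arrays correlated with each other at 0.945 to 0.99. Bcl11b, the gene that carries the reporter, was at 8.76, 7.91 and 8.54 in GFP+ cells, against 6.44, 6.28 and 6.88 in GFP- cells. Cells labelled as cortical progenitors had Emx1, Lhx2 and Fezf2, which mark the cortex, above the olfactory level on 6 of 6 arrays, Tbr1 on 4 and Neurod6 on 2. Of the 11 cortical markers measured, Bcl11b included, 6 exceeded that level on all 6 arrays and 5 on some. Their median difference was -0.065.

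Of the 41 genes, 24 exceeded the olfactory level on all 6 arrays, 12 on some of them and 5 on none. The 5 were Cdh3, Cdh9, Cdh17, Cdh19 and Pcdh20, and no level can be told from the floor for these. The plot of signals by gene and array shows members of every family on both sides of the floor, except that all 5 delta-2 protocadherins and all 3 Celsr genes lay above it throughout.

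**Figure D1:**
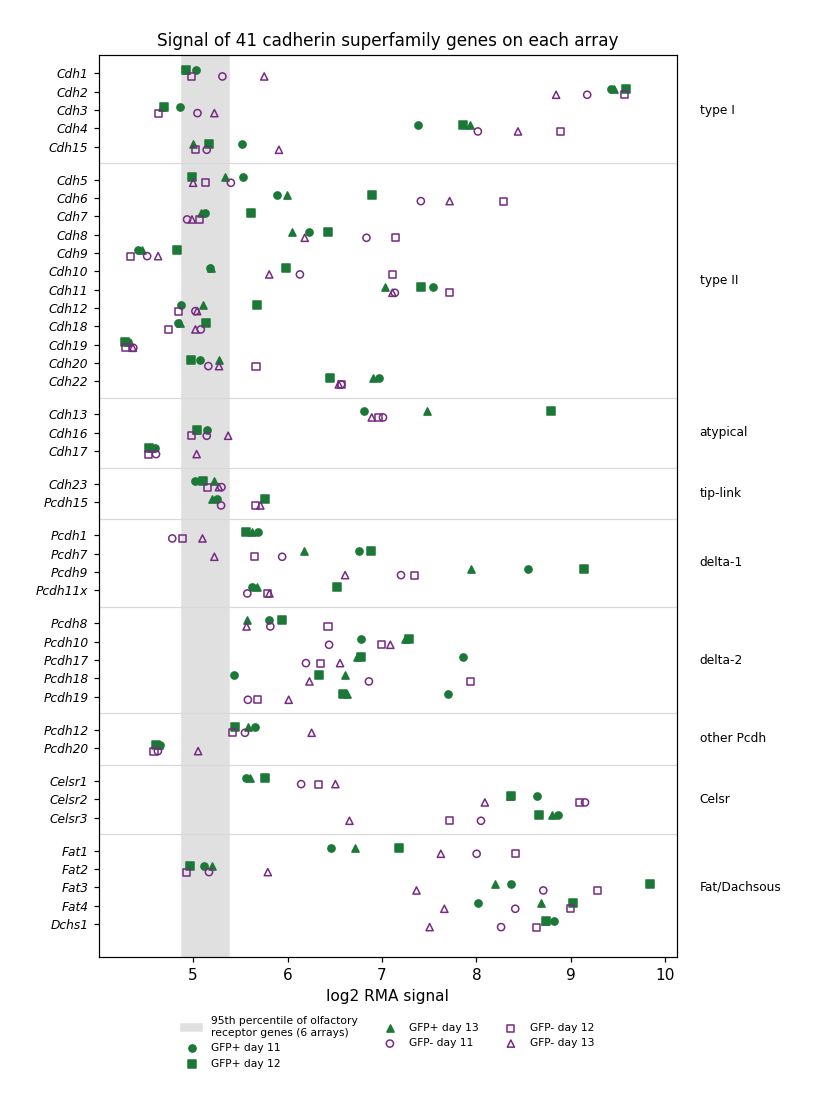
Log2 RMA signal (horizontal axis) of each of the 41 genes (rows, grouped by family) on the 3 GFP+ arrays (filled green) and the 3 GFP- arrays (open purple), with circles for day 11, squares for day 12 and triangles for day 13. The grey band spans the 95th percentile of the olfactory receptor genes over the 6 arrays, 4.89 to 5.38, and 24 genes exceeded the value of the array on all 6.

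The comparison of GFP+ with GFP- cells used limma, paired by day, and p-values were adjusted by the Benjamini-Hochberg method over the 19938 genes. Pcdh9 and Pcdh7, both delta-1 protocadherins, were higher in GFP+ cells at an adjusted p under 0.05, which makes 2 of 41 members (4.88%) where 0.797% of all genes were. Cdh6, a type II cadherin, and Fat1, a giant cadherin that organises actin and polarity, were lower, again 2 of 41, where 0.567% of all genes were. The other 37 members did not pass. Consecutive days served as the replicates, with no repeated cultures of 1 day. For each gene, limma combined the variation of the difference from day to day with a variance shared over all genes. The p-values and intervals therefore do not measure the spread of that gene alone. In bulk samples, fewer cells of a type and less RNA per cell cannot be told apart.

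Pcdh9 was at 8.55, 9.14 and 7.94 in GFP+ cells on day 11, day 12 and day 13, against 7.20, 7.34 and 6.61 in GFP- cells. The means were 8.54 ± 0.60 and 7.05 ± 0.39 (SD, n = 3 each), a difference of 1.49 (standard error 0.16, 95% confidence interval 1.10 to 1.88, limma adjusted p = 0.028) or 2.81-fold. Every GFP+ array lay above every GFP- array, and both fractions were highest on day 12 and lowest on day 13. Pcdh9 has a second probe set, which gave a difference of 1.65. Pcdh7 was at 6.76, 6.89 and 6.17 in GFP+ cells, against 5.94, 5.65 and 5.22 in GFP- cells, where the day 13 value was below the olfactory level of that array. The difference was 1.0 (standard error 0.15, 95% confidence interval 0.63 to 1.37, adjusted p = 0.049), with no overlap between the fractions.

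Cdh6 was at 5.89, 6.89 and 5.99 in GFP+ cells, against 7.41, 8.28 and 7.72 in GFP- cells. It was 2.92-fold lower in GFP+ cells (difference -1.55, standard error 0.14, 95% confidence interval -1.90 to -1.19, limma adjusted p = 0.024), and the highest GFP+ array was below the lowest GFP- array. Fat1 was at 6.46, 7.18 and 6.71 in GFP+ cells, against 8.0, 8.41 and 7.62 in GFP- cells. Its difference of -1.23 (standard error 0.17, 95% confidence interval -1.65 to -0.81, adjusted p = 0.043) was also free of overlap, and in each fraction both Cdh6 and Fat1 were highest on day 12.

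These 4 calls rested on few arrays. Without day 13, 0 genes of the whole array passed limma's test, while 3064 genes had an unadjusted p under 0.05, among them 6 members that were higher and 8 that were lower. The differences of Pcdh9, Pcdh7, Cdh6 and Fat1 were then 1.57, 1.02, -1.46 and -1.39. Over all 12 alternatives the adjusted p ranged from 0.0015 to 0.462 for Pcdh9, from 0.0019 to 0.490 for Pcdh7, from 0.00023 to 0.443 for Cdh6 and from 0.0081 to 0.426 for Fat1. Leaving out the GFP- array of day 13 alone, with no term for day, gave differences of 1.27, 0.81, -1.59 and -1.43 for the same genes in that order.

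Neuronal and radial glial genes moved with the same contrast. Of 15 neuronal markers, 4 passed the test as higher in GFP+ cells and 0 as lower, with a median difference of 1.13, and the mean of their log2 signals was 9.09 to 9.45 on the GFP+ arrays and 7.47 to 8.51 on the GFP- arrays. Of 13 markers of radial glia and progenitors, 0 were higher and 6 were lower (Nes, Vim, Hes5, Slc1a3, Notch1 and Sox9), with a median of -1.09, and their mean was 7.12 to 7.67 on the GFP+ arrays and 8.43 to 8.92 on the GFP- arrays. Every marker of the neuronal list and 12 of the 13 of the radial glial list exceeded the olfactory level on all 6 arrays. The part of these cell types in the differences of the cadherin genes was not tested.

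Counted without a test, the mean difference exceeded 2-fold in favour of GFP+ cells for 3 members (Pcdh9, Celsr3 and Pcdh19), where it did for 1.97% of all genes, and 2 members were over 2-fold lower (Cdh6 and Fat1), where 1.02% of all genes were. Every GFP+ array lay above every GFP- array for 8 members, namely Cdh7, Pcdh1, Pcdh7, Pcdh9, Pcdh17, Pcdh19, Celsr3 and Dchs1 (19.5% of members, against 9.05% of all genes). Of these, Cdh7 exceeded the olfactory level on only 3 arrays. Its difference of 0.28 was 0.066 with values below that level set to it. The reverse held for Cdh4, Cdh6, Celsr1 and Fat1 (9.76%, against 7.85% of all genes), a share close to that of all genes. At an unadjusted p under 0.05, 7 members were higher and 6 were lower (17.1% and 14.6%, against 9.58% and 5.96% of all genes). The median difference over the 41 members was -0.038, beside -0.053 over all genes, with members between -1.55 and 1.49. On all 3 days 10 members were higher in GFP+ cells (24.4%, against 16.9% of all genes) and 9 were lower (22%, against 21.4%). In the plot of differences by day, the 3 days lie close together for Cdh6 and Pcdh9 and far apart for Pcdh18, Cdh13 and Celsr3.

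**Figure D2:**
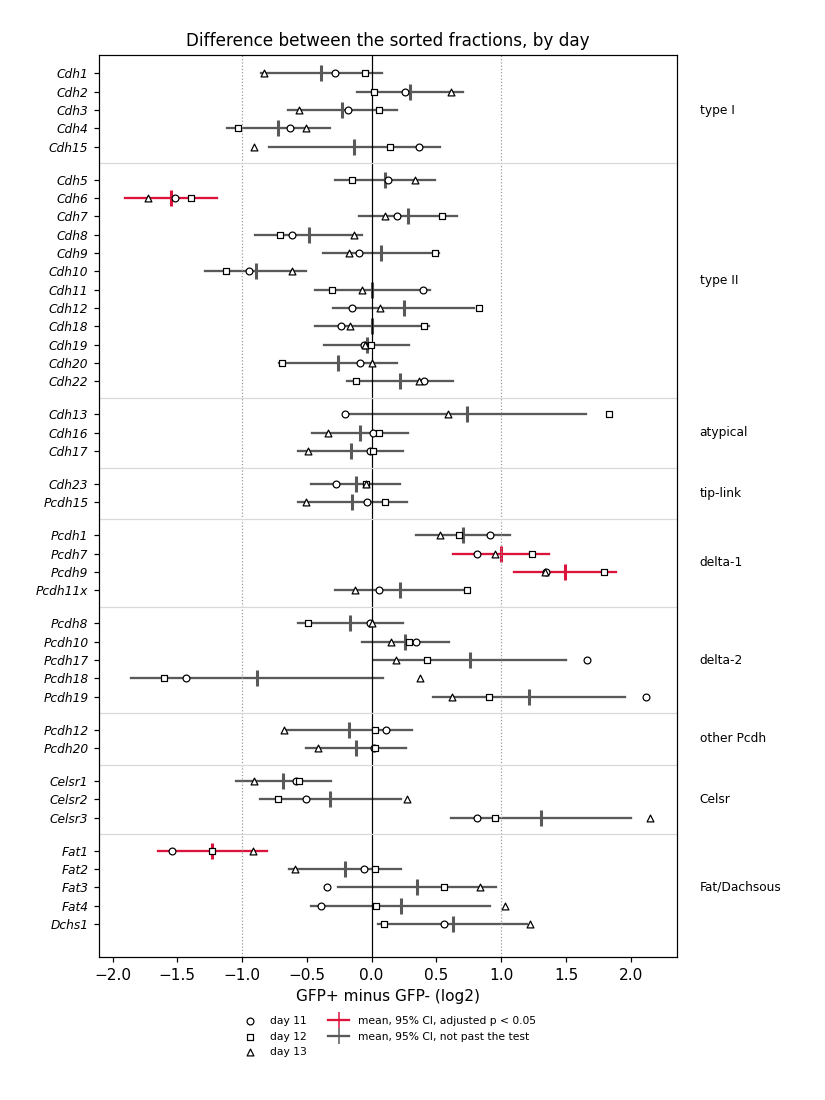
GFP+ minus GFP- difference of the log2 signal (horizontal axis) for each gene (rows, grouped by family), with circles for day 11, squares for day 12 and triangles for day 13, the mean as a vertical tick and its 95% confidence interval as a line. Red marks the 4 genes past limma's test, and the dotted lines at -1 and 1 mark 2-fold.

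Celsr3 and Pcdh19 were both over 2-fold higher in GFP+ cells on average without passing the test. They are the members above 2-fold whose promoter windows begin before the gene in the RefSeq annotation of mouse build GRCm38.p6. A window runs from 250 bases before the annotated start to 50 after it. Only the first 199 bases of these 2 windows, which lie before the gene, are shown. The windows of Pcdh9, Pcdh7, Cdh6 and Fat1 begin inside the gene and are not shown. The 199 bases that run up to 29 bases before the 5′ end of Celsr3 (chr9:108825795-108825993, plus strand) and up to the 5′ end of Pcdh19 (chrX:133689045-133689243, minus strand) are given 5′ to 3′, and capitals mark the GC box, GGGCGG or its reverse complement, which is bound by Sp-family factors.
Celsr3: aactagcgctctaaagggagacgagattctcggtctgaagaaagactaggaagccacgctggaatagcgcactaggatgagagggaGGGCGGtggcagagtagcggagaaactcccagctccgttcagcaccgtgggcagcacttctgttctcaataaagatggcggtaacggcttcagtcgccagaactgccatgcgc
Pcdh19: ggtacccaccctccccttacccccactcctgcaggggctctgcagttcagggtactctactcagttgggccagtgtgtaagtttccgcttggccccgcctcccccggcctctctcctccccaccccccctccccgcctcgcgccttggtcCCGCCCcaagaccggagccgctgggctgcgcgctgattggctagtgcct
Each stretch of 199 bases holds 1 GC box, with 13 CpG dinucleotides and 55.8% G and C bases in Celsr3 and 11 and 68.8% in Pcdh19. On either strand, GGGCGG occurred in 9 of the 26 members that have a window and, over the same 199 bases, in 24.3% of 27025 windows. The 26 include windows that begin inside the gene, such as those of Cdh6 and Fat1. The E-box CAGCTG occurred in 2 of 26 members and 2708 of 27025 windows. TGGGAA, the core of the RBPJ site of Notch targets, occurred in 3 of 26 members and 17.8% of windows, and neither motif was in the stretches shown. A match describes the letters only.

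Among type I cadherins, 0 of 5 passed the test in either direction. Cdh4 encodes R-cadherin, which in the mouse embryonic forebrain is known to mark the cortex. It was at 7.39, 7.86 and 7.94 in GFP+ cells, against 8.01, 8.89 and 8.44 in GFP- cells, so that the fractions did not overlap (difference -0.72, standard error 0.16, 95% confidence interval -1.12 to -0.32, limma adjusted p = 0.105). Cdh2, the N-cadherin of neural junctions, which was chosen after its values were seen, was at 9.43, 9.59 and 9.45 in GFP+ cells, against 9.17, 9.56 and 8.84 in GFP- cells. The fractions overlapped for Cdh2, and its interval ran from -0.11 to 0.71. Cdh1, the E-cadherin of epithelia, was at 5.03, 4.93 and 4.92 in GFP+ cells, against 5.31, 4.98 and 5.75 in GFP- cells, and it exceeded the olfactory level on 3 arrays. Of 11 markers of epithelium and endoderm, 0 passed the test, their mean was 5.14 to 5.39 on the GFP+ arrays and 5.10 to 5.66 on the GFP- arrays, and 5 of them exceeded the olfactory level on all 6 arrays, 2 on some and 4 on none. The keratin gene Krt8 was at 6.07 to 7.0 in GFP+ cells and 5.94 to 6.75 in GFP- cells, and Epcam, an epithelial adhesion gene, was above the olfactory level on 0 arrays. For Cdh3, the P-cadherin, and Cdh15, the M-cadherin of muscle, the differences were -0.23 and -0.13. On day 11, day 12 and day 13 they were -0.18, 0.060 and -0.56 for Cdh3 and 0.37, 0.14 and -0.91 for Cdh15.

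Type II cadherins are known for combinatorial expression that sorts neurons into nuclei and circuits, and in the embryonic forebrain cadherin-6 marks the lateral ganglionic eminence. Of the 12, 0 were higher, Cdh6 was lower and 11 did not pass. Cdh10 was at 5.18, 5.99 and 5.19 in GFP+ cells, against 6.13, 7.11 and 5.81 in GFP- cells. It was lower in GFP+ cells on every day, although the GFP+ array of day 12 lay above the GFP- array of day 13 (difference -0.90, standard error 0.16, 95% confidence interval -1.29 to -0.50, limma adjusted p = 0.066). Cdh8, which marks areas of the developing cortex, was at 6.22, 6.43 and 6.04 in GFP+ cells, against 6.84, 7.14 and 6.18 in GFP- cells (difference -0.49, adjusted p = 0.248). The other 9, Cdh5, Cdh7, Cdh9, Cdh11, Cdh12, Cdh18, Cdh19, Cdh20 and Cdh22, had differences between -0.26 and 0.28. Cdh5, the cadherin of vascular endothelium, was at 4.98 to 5.52 in GFP+ cells and 5.0 to 5.4 in GFP- cells, and 0 of 8 endothelial markers passed the test, with means of 4.87 to 5.0 on the GFP+ arrays and 4.91 to 5.43 on the GFP- arrays.

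Cdh13 encodes T-cadherin, which is anchored in the membrane by a lipid and has no cytoplasmic tail. It was at 6.81, 8.79 and 7.48 in GFP+ cells, against 7.01, 6.96 and 6.89 in GFP- cells. The 3 GFP- values lay within a narrow band (SD 0.060), the GFP+ values spread widely (SD 1.01) and the GFP+ array of day 12 stood highest, with differences of -0.20, 1.83 and 0.59 on the 3 days. The mean difference of 0.74 had a 95% confidence interval of -0.18 to 1.65 (limma adjusted p = 0.432), and it was 0.19 without day 12 and 1.21 without day 11. The differences of the other atypical cadherins, Cdh16 and Cdh17, were -0.091 and -0.16. On day 13 they were -0.34 and -0.49, and on the earlier days they lay between -0.011 and 0.060. Cdh23 and Pcdh15 form the tip links of hair cells in the inner ear, and they were at 5.02 to 5.23 and 5.20 to 5.76 in GFP+ cells and at 5.15 to 5.30 and 5.30 to 5.71 in GFP- cells. Their differences of -0.12 and -0.15 had adjusted p-values of 0.719 and 0.721.

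The median difference of the delta-1 protocadherins was 0.85, or 0.71 with values below the olfactory level set to it, and of the 4 genes 2 passed the test as higher in GFP+ cells, 0 as lower and 2 did not pass. Besides Pcdh9 and Pcdh7, Pcdh1 was at 5.69, 5.56 and 5.63 in GFP+ cells, against 4.78, 4.89 and 5.10 in GFP- cells. The fractions did not overlap, and the measured difference was 0.70 (standard error 0.15, 95% confidence interval 0.34 to 1.07, limma adjusted p = 0.093). The GFP- values lay at or below the olfactory level, so this difference cannot be taken as exact. With values below the olfactory level set to it, the mean difference of Pcdh1 was 0.47, or 1.39-fold, given without an interval. Pcdh11x was at 5.63, 6.53 and 5.68 in GFP+ cells, against 5.57, 5.79 and 5.81 in GFP- cells. The fractions overlapped, and the difference of 0.22 was -0.039 without day 12.

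Of the 5 delta-2 protocadherins, 0 passed the test in either direction, with differences between -0.89 and 1.21. Pcdh19, an X-linked gene whose human counterpart is mutated in an epilepsy of girls, was at 7.70, 6.59 and 6.63 in GFP+ cells, against 5.58, 5.69 and 6.01 in GFP- cells. The fractions did not overlap and the GFP+ array of day 11 stood highest, so that the differences were 2.12, 0.90 and 0.62 on the 3 days (mean 1.21, standard error 0.30, 95% confidence interval 0.47 to 1.95, limma adjusted p = 0.129). Without day 11 the mean difference of Pcdh19 was 0.76. Pcdh17, which acts in axon extension and synapse assembly, was likewise highest on the GFP+ array of day 11. It was at 7.86, 6.77 and 6.74 in GFP+ cells, against 6.19, 6.34 and 6.56 in GFP- cells, with a mean difference of 0.76 (adjusted p = 0.309) that was 0.31 without day 11. Pcdh18 went the other way on the first days. It was at 5.43, 6.34 and 6.60 in GFP+ cells, against 6.86, 7.94 and 6.23 in GFP- cells, with differences of -1.43, -1.61 and 0.37. Over the 3 days the mean was -0.89 (adjusted p = 0.371), while without day 13 it was -1.52. Pcdh8 and Pcdh10 had differences of -0.17 and 0.26. The other non-clustered protocadherins were Pcdh12, known from vascular endothelium, and Pcdh20, and they had differences of -0.18 and -0.12. Pcdh12 was at 5.66, 5.44 and 5.58 in GFP+ cells, against 5.55, 5.42 and 6.25 in GFP- cells, and its difference was 0.069 without day 13.

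The 3 Celsr genes encode seven-pass cadherins of the core planar polarity pathway, and 0 of them passed the test in either direction. Celsr3, which with Fzd3 is needed for the major axon tracts of the mouse forebrain, was at 8.86, 8.67 and 8.81 in GFP+ cells, against 8.05, 7.71 and 6.66 in GFP- cells. The GFP+ values were closely alike (8.78 ± 0.10, SD, n = 3) and the GFP- values were not (7.47 ± 0.73, n = 3), with the array of day 13 lowest. The difference was 1.31 (standard error 0.28, 95% confidence interval 0.61 to 2.0, limma adjusted p = 0.099), and it was 0.88 without day 13, hence under 2-fold. Celsr1, which is known from neural progenitors, was at 5.56, 5.77 and 5.60 in GFP+ cells, against 6.14, 6.33 and 6.51 in GFP- cells. The fractions did not overlap, and the difference was -0.68 (standard error 0.15, adjusted p = 0.10). Celsr2, which acts with Celsr3 in ependymal cilia, was at 8.64, 8.37 and 8.36 in GFP+ cells, against 9.15, 9.09 and 8.09 in GFP- cells. The GFP+ value was the lower one on day 11 and day 12 and the higher one on day 13 (mean difference -0.32, adjusted p = 0.572), and the mean was -0.61 without day 13 and -0.12 without day 12. Whether the differences of the 3 genes differ from each other was not tested. In the plot of paired arrays, the line of day 13 is the steepest for Celsr3 and that of day 11 for Pcdh19, whereas the lines of Cdh6 run nearly parallel.

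**Figure D3:**
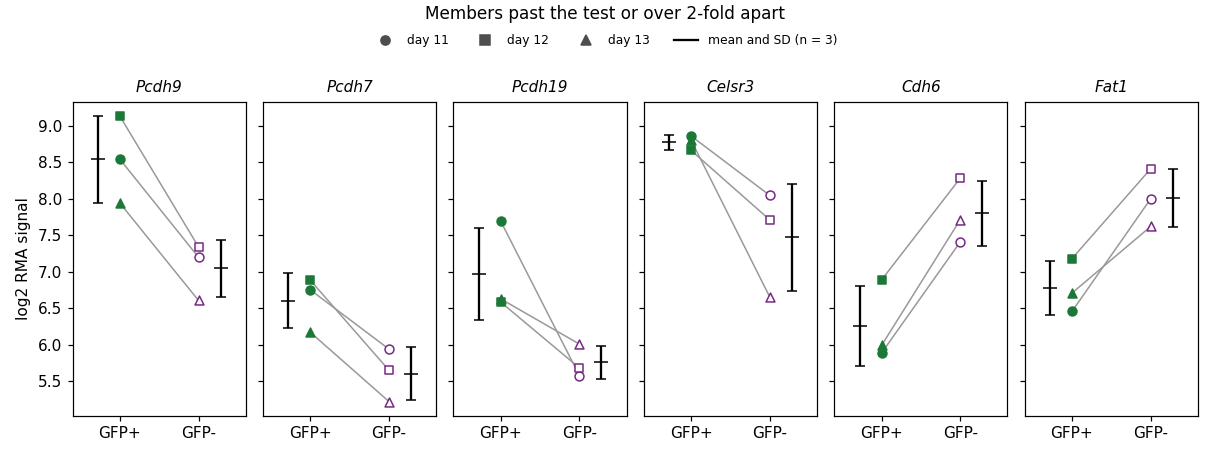
Log2 RMA signal (vertical axis) of the 6 members past the test or over 2-fold apart, with GFP+ arrays (filled green) left of GFP- arrays (open purple), a grey line joining the arrays of 1 day, and the mean and SD of the 3 arrays beside each fraction. In Pcdh9, Pcdh7, Pcdh19 and Celsr3 every GFP+ array is above every GFP- array, and in Cdh6 and Fat1 every GFP+ array is below.

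Fat4 and Dchs1 form a receptor and ligand pair that acts in cortical progenitors and in neuronal migration. Of the 5 Fat and Dachsous genes, 0 were higher, Fat1 was lower and 4 did not pass. Dchs1 was at 8.82, 8.74 and 8.73 in GFP+ cells, against 8.26, 8.64 and 7.5 in GFP- cells, without overlap, and the difference of 0.63 (standard error 0.23, limma adjusted p = 0.28) was 0.33 without day 13. Fat4 was chosen after its values were seen, as the partner of Dchs1. It was at 8.02, 9.03 and 8.69 in GFP+ cells, against 8.41, 8.99 and 7.66 in GFP- cells, so that the fractions overlapped and the difference (mean 0.22) ran from -0.39 on day 11 to 1.03 on day 13. Fat2, known from cerebellar granule cells, had a difference of -0.21.

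Fat3, which shapes the dendrites of retinal amacrine cells in the mouse, has 15 probe sets with its symbol, and the one with the highest mean signal was at 8.37, 9.84 and 8.20 in GFP+ cells, against 8.71, 9.28 and 7.36 in GFP- cells. The mean difference was 0.35 (standard error 0.25, limma adjusted p = 0.579), and it changed sign between day 11 (-0.34) and the later days (0.56 and 0.84). The probe sets shared this course. GFP+ was the higher fraction in 2 of 15 on day 11 (median difference -0.48), in 15 on day 12 (0.56) and in 13 on day 13 (0.71). The GFP+ array of day 12 was the highest of the 6 in all 15 probe sets, and the GFP- array of day 13 was the lowest in 13. Probe sets of 1 gene on the same arrays are not replicates.

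**Figure D4:**
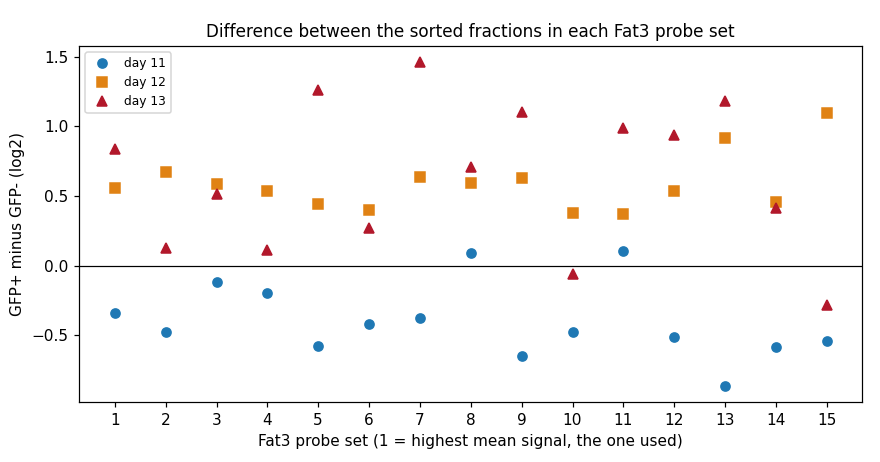
GFP+ minus GFP- difference of the log2 signal (vertical axis) on day 11 (blue circles), day 12 (orange squares) and day 13 (red triangles) for the 15 probe sets of Fat3, ordered from the highest mean signal (1) to the lowest (15). Day 12 lies above 0 in all 15, day 13 in 13 and day 11 in 2.

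Day by day, with 1 array per fraction and no test, Pcdh9, Pcdh17 and Pcdh19 were over 2-fold higher in GFP+ cells on day 11, where 1.85% of all genes were, and Cdh6, Pcdh18 and Fat1 were over 2-fold lower, where 1.3% were. On day 12, Cdh13, Pcdh7 and Pcdh9 were over 2-fold higher (1.48% of all genes) and Cdh4, Cdh6, Cdh10, Pcdh18 and Fat1 were over 2-fold lower (2.43%). On day 13, Pcdh9, Celsr3, Fat4 and Dchs1 were over 2-fold higher (9.76% of members, near the 9.18% of all genes) and Cdh6 was over 2-fold lower (2.44%, near the 2.29% of all genes). Pcdh9 and Cdh6 were thus over 2-fold apart on each of the 3 days.

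A slope per day shared by the fractions was fitted with limma, and 0 members passed, as did 0% of all genes. At an unadjusted p under 0.05 there were 3 members, where 0.873% of all genes were, with slopes of -0.33 log2 units per day for Pcdh7, 0.28 for Pcdh10 and -0.34 for Celsr2. The change of the fraction difference per day was fitted as an interaction, which leaves 1 residual degree of freedom, and again 0 members passed, where 0.0351% of all genes did. At an unadjusted p under 0.05 there were 7 members (17.1%, against 5.11% of all genes). The fitted change of the difference per day was positive for Pcdh18 (0.90), Fat4 (0.71), Celsr3 (0.67) and Fat3 (0.59), and negative for Pcdh19 (-0.75), Pcdh17 (-0.74) and Cdh15 (-0.64). The day 13 arrays, of which the GFP- array stood apart, enter each of these values. Day 12 was the highest of the 3 days in both fractions for 10 members (24.4%), a share near the 23.7% of all genes.

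Genes of the partner proteins were counted on lists. Among 13 catenins and junction partners, 0 were higher in GFP+ cells, Ctnna1 was lower and 12 did not pass. Ctnna1 encodes the α-catenin of epithelia and progenitors, and it was at 6.17, 6.45 and 6.26 in GFP+ cells, against 7.19, 7.82 and 7.21 in GFP- cells (difference -1.11, standard error 0.15, limma adjusted p = 0.043). Its call was kept in 7 of 12 alternatives and lost without day 13, at a difference of -1.19. Ctnna2 encodes the α-catenin of neurons. It was at 8.46, 8.85 and 8.58 in GFP+ cells, against 7.67, 7.37 and 6.45 in GFP- cells, and its difference of 1.47 (standard error 0.26) did not pass (adjusted p = 0.067), although it passed without day 11 and without day 12, at 1.80 and 1.46. It also passed without the GFP- array of day 13 and the term for day, at 1.11. The filters for genes of low signal and trended eBayes let Ctnna2 pass too, and none of the other alternatives did. The fractions overlapped for neither gene.

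Of 10 planar polarity partners of Celsr proteins, 0 passed the test, with Fzd3, the receptor that acts with Celsr3, at a difference of 0.85 (limma adjusted p = 0.293) and Prickle2 at 0.43 (adjusted p = 0.502). Without day 13 these differences were 0.36 and 0.16, and without the GFP- array of day 13 and the term for day 0.23 and 0.057, whereas without day 12 Fzd3 was at 1.21 and passed. Of 8 partners of the Fat and Dachsous pathway, 0 passed, and the largest differences were those of Tead2 (-1.35, standard error 0.21, adjusted p = 0.05015) and Tead1 (-0.78, adjusted p = 0.254), the DNA-binding partners of YAP. Tead2 passed without day 11 and without day 12, at -1.48 and -1.08. It also passed with quantile normalization, the mean of probe sets, filters for genes of low signal and trended eBayes, and in none of the other alternatives. Tead1 was at -1.19 without day 13. Among 15 calsyntenins and other cadherin superfamily genes, Clstn3, a synaptic calsyntenin, was higher, 0 were lower and 14 did not pass. Clstn3 was at 7.62, 7.93 and 7.52 in GFP+ cells, against 6.37, 6.91 and 6.46 in GFP- cells (difference 1.11, standard error 0.14, adjusted p = 0.034). Its call was kept in 5 of 12 alternatives and lost without day 13 and without day 11, with differences of 0.94 to 1.17 over all 12. Clstn2 had a difference of 0.80 (adjusted p = 0.069).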

How the data were processed

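Total RNA of the sorted cells of each sample was amplified, biotin-labelled and hybridised to 6 arrays. The authors summarised the probe sets with RMA16 in GeneSpring and deposited log2 signals. The sources used here name no joint normalization of the arrays, no filter and no genome build for the values.

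Of 28853 probe sets, 21789 had 1 gene symbol. Per gene, the one with the highest mean over the 6 arrays was used, which gave 19938 genes, and the 41 members had 58 probe sets. The fit was made with limma 3.58.1 under R 4.3.3 (lmFit and eBayes), with a term for fraction and 1 for day. It left 2 residual degrees of freedom per gene, to which eBayes added those of the variance shared over genes. The fit was run on simulated arrays with independent normal noise and variances drawn from its own model. That setting holds no array that stands apart, so it cannot show how the fit performs on these data. The labels give the day that pairs the fractions. On day 11, day 12 and day 13, the deviations of the paired arrays from the mean of their fraction correlated at 0.112, 0.558 and 0.368 across genes, while the GFP+ array of day 11 correlated at 0.297 with the GFP- array of day 13. Precision is limited by the number of arrays.

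Members named with values are those past the test or over 2-fold, and up to 2 more per family with the largest differences among those above the olfactory level. The members, the partner lists and the marker lists were chosen with earlier results of these data known. There were 12 alternatives. A few genes of the partner and marker lists were not analysed here. Promoter sequences are those of RefSeq (GRCm38.p6). Of the 41 members, 26 had one.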

Additional observations from a re-analysis of the deposited data

How the results depend on the processing

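With no replicate block for the day, 0 members were higher and 0 lower past the test (6 and 5 at an unadjusted p under 0.05), where 84 and 41 of all 19938 genes passed. Median centring also gave 0 and 0 (7 and 5 unadjusted), as did Student's t-test (5 and 3 unadjusted), and 0 of all genes passed with either. The paper names that t-test for its in vitro and in vivo experiments and names no test for the arrays. Quantile normalization left 0 higher and 1 lower (Fat1), where 52 and 99 of all 19938 genes passed. Trended and robust eBayes gave 5 and 4, where 549 and 510 of all 19938 genes passed. Celsr3, Pcdh1 and Pcdh19 were added as higher and Cdh10 and Celsr1 as lower. The filter on the olfactory level gave 4 higher and 3 lower among 33 members tested, where 544 and 281 of 13229 genes passed. It added Celsr3 and Pcdh19 as higher and Cdh10 as lower. The fit without the GFP- array of day 13 and without the block gave 2 higher (Celsr3 and Pcdh1) and 0 lower, with 4 over 2-fold lower. There, 202 and 114 of all genes passed. Leaving out 1 day gave 0 to 4 members higher, 0 to 2 lower and 2 to 4 over 2-fold lower: without day 13 the counts were 0, 0 and 4, the last adding Cdh10 and Pcdh18, without day 12 Celsr3 and Pcdh19 passed as well, and without day 11 Cdh13 and Celsr3. Of all genes, 930 were then higher and 229 lower past the test without day 12, and 381 and 171 without day 11. Pcdh9, Pcdh7 and Cdh6 kept their call in 6 and Fat1 in 7 of 12 alternatives, and among the partner genes Clstn3 kept its call in 5 and Ctnna1 in 7. The direction changed for none of these genes. It could not change with no block, the filters on signal, trended eBayes or the t-test, which leave the difference as it is. Nor could the mean of probe sets change it for genes with 1 probe set. With 1 day left out, the difference of Pcdh15 ran from -0.27 to 0.031, that of Pcdh11x from -0.039 to 0.40 and that of Pcdh12 from -0.32 to 0.069. Without the GFP- array of day 13 and the block, Pcdh12 was at 0.079 and Fat3 at -0.19. The cause was not tested. Slopes and interactions gave 0 members in every alternative in which they were fitted. Of 360 values of single genes, 288 kept their direction and side of the threshold, 32 passed in addition, 35 no longer passed and 5 reversed. The values from settings that leave the difference as it is could not reverse, so the 360 overstate how often a reversal was possible. The precision is limited by the 3 arrays of each fraction, and members near the olfactory level are limited by signal.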
